A study of Mus musculus with 16 samples.

Results

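The untreated arrays of the study ask what the colonic epithelium of a young adult mouse looks like when its mother's milk carried no secretory IgA. They are 8 of 16 arrays, chosen by their labels as the arrays of mice that received no dextran sulfate sodium (DSS): 4 of offspring without and 4 of offspring with SIgA in early life. All mice were C57BL/6, gender-matched and 70 days old. A Pigr+/- dam gave early, or passive, SIgA with her milk, and a Pigr-/- dam did not. Active SIgA, which the offspring exports through its own receptor, was present in Pigr+/- and absent in Pigr-/- offspring. The 4 untreated groups were thus passive and active SIgA (Pigr+/- offspring of Pigr+/- dams), passive only (Pigr-/- offspring of Pigr+/- dams), active only (Pigr+/- offspring of Pigr-/- dams) and neither (Pigr-/- offspring of Pigr-/- dams). Each group had 2 arrays, each array carrying RNA pooled from 3 mice, so that 6 mice stood behind a group. No group held a wild-type mouse.

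Every difference is without minus with passive SIgA, on the log2 scale. The comparison is the mean of a pair of matched differences: active only minus passive and active, among offspring that export their own SIgA, and neither minus passive only, among offspring that do not. A gene passed the threshold, or rose or fell, at an adjusted p under 0.05 in limma's moderated test over 19938 genes. The replicates are separate pools of mice, and a p-value here speaks of differences from pool to pool. Offspring of Pigr+/- and of Pigr-/- dams come from different litters, so that early SIgA, the dam's genotype and the litter cannot be told apart. The labels give no hour of tissue collection.

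SIgA is made by plasma cells under the gut epithelium and carried into the lumen by the polymeric immunoglobulin receptor, which Pigr encodes. A newborn makes little of its own and receives it with the milk. In the lumen it coats bacteria and limits their contact with the epithelium. The colonic epithelium takes up sodium and water, renews itself from crypt cells, makes mucus and antimicrobial proteins, and keeps a circadian clock of its own.

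Pigr stood at 12.45 and 12.39 in the passive and active arrays, 11.61 and 11.43 in the passive only arrays, 12.34 and 12.18 in the active only arrays, and 11.68 and 11.70 in the neither arrays. The offspring's genotype was therefore visible on every array, and within each genotype the arrays without passive SIgA lay close to those with it (mean difference 0.01 ± 0.07, SE, adjusted p = 0.957). The dam's genotype has no such check on these arrays. Among 14 genes of epithelial identity the mean level ran from 12.42 to 12.54 on the 8 arrays. Markers of fibroblasts ran from 6.66 to 7.23, of smooth muscle from 6.48 to 6.91, of endothelium from 6.02 to 6.5, of T cells from 5.97 to 6.32 and of B cells from 6.13 to 6.59, with the highest value of each of these 5 lists in active only replicate 1.

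The arrays differed in another way that touches the results. In the passive and active group, 1290 chemosensory receptor and keratin-associated genes, most of them dim, had mean levels of 5.25 and 5.41. The other 6 untreated arrays lay between 4.46 and 4.87, with active only replicate 1 the highest of them, and the DSS arrays between 4.45 and 4.71. On the first principal component of the 8 arrays, which held 44.9% of the variance, the passive and active arrays lay at -27.9 and -32 and active only replicate 1 at -19.5, against 8.2 to 24.4 for the other 5. The part of this in the differences at active SIgA present was not tested, and each matched difference is therefore given by itself.

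Without passive SIgA, 514 genes passed the threshold, 155 higher and 359 lower, which is 2.58% of all genes tested (0.777% higher and 1.8% lower). Of the 359 that fell, 217 were chemosensory receptor or keratin-associated genes, while none of the 155 that rose was. With active SIgA present 1080 genes passed (5.42%), 314 higher (1.57%) and 766 lower (3.84%). That balance turned, to 842 higher and 677 lower, without active only replicate 2, and was 34 and 323 with array weights. With active SIgA absent none did (0%) in limma's test. There 1518 genes (7.61%) had an unadjusted p under 0.05, the smallest adjusted p was 0.0547, and limma with a trend called 5 genes, with array weights 7 and with no moderation 1. The matched differences themselves differed in 229 genes (1.15%), 162 of them chemosensory receptor or keratin-associated. Centring each array on its median moved the median difference of all genes by -0.079 in the mean comparison and by -0.151 with active SIgA present, and then 80 genes were higher and 869 lower in the mean comparison, and 123 higher and 1685 lower with active SIgA present. Quantile normalization gave 813 higher and 1084 lower in the latter.

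Bright and dim genes are described apart. Above the median mean level of 7, 225 of 9969 genes passed, 124 higher and 101 lower, and 219 of them had the same sign at both levels of active SIgA. The genes that rose had a median difference of 0.50 with active SIgA present and 0.37 with it absent, and those that fell had -0.52 and -0.46. Only 6 of the 225 passed the test of a difference between the matched differences. At or below that level 289 genes passed, 31 higher and 258 lower. Those that fell had a median of -1.16 with active SIgA present and -0.08 with it absent, and 150 of the 289 passed the test of the difference between the pairs. Genes were called from the mean of both differences, so that a shared sign is in part set by the calling.

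**Figure D1:**
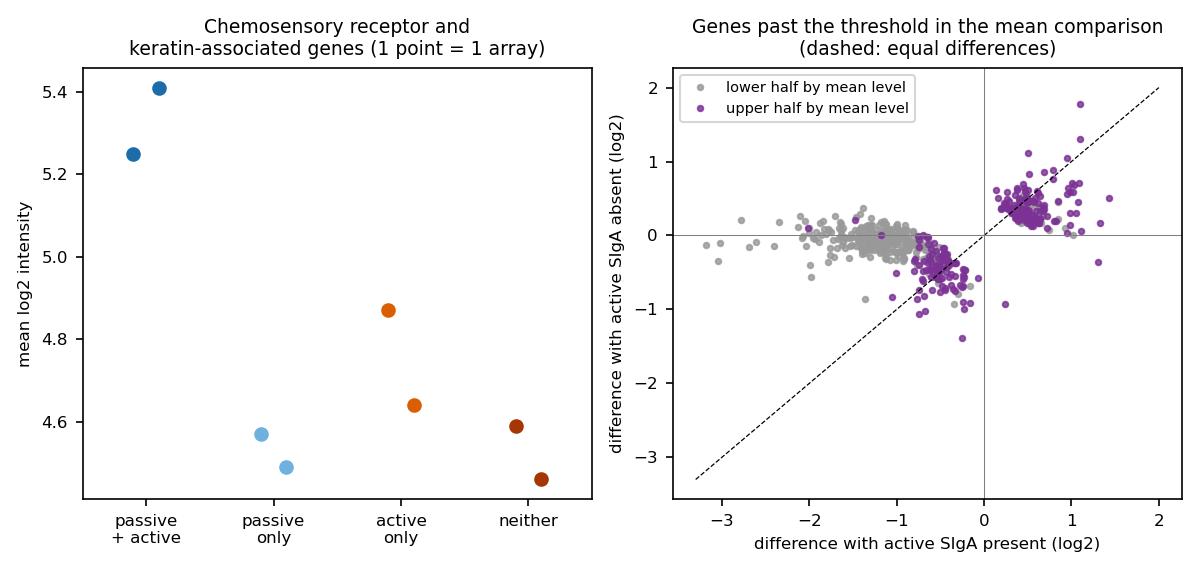
Left, mean log2 intensity of the chemosensory receptor and keratin-associated genes on each untreated array (1 point for each of 2 arrays per group): the passive and active arrays stand at 5.25 and 5.41, above the other 6. Right, each gene past the threshold in the mean comparison, by its log2 difference (without minus with passive SIgA) at active SIgA present (horizontal) and absent (vertical): genes above the median mean level lie around the dashed line of equal differences, and most of the dimmer genes lie near 0 on the vertical axis.

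Ciart and Nr1d2, of the circadian clock, were among the genes that rose most. In the clock, Clock and Arntl (Bmal1) drive the Per and Cry genes, which block them, and the genes of Nr1d1, Nr1d2, Dbp, Tef and Ciart, which oscillate as outputs or feedback arms. Of 18 clock genes 2 rose and none fell, against 0.777% and 1.8% of all genes. The median difference over the list was 0.35 in the mean comparison, 0.29 with active SIgA present and 0.36 with it absent, against 0.03, 0.06 and 0.01 over all genes. At an unadjusted p under 0.05 8 were higher and 3 lower, against 10.1% and 9.74% of all genes. In 5 clock genes all 4 arrays without passive SIgA lay above all 4 with it, and in 2 all lay below, against 4.09% and 2.1% of all genes.

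Ciart, a repressor of the Clock and Arntl pair, stood at 6.32 and 6.51 with passive and active SIgA, 7.27 and 6.5 with passive only, 7.67 and 7.34 with active only, and 8.41 and 8.91 with neither. The groups with and without passive SIgA did not overlap, and Ciart rose by 1.44 ± 0.33 (SE), a factor of 2.7 (adjusted p = 0.0398). Its matched differences were 1.10 and 1.78. Nr1d2, a nuclear receptor that represses Arntl, stood at 9.30 and 9.40, 9.92 and 9.52, 10.26 and 10.49, and 10.38 and 10.44 in the same order of groups. All 4 arrays without passive SIgA were again above all 4 with it, by 0.86 ± 0.13, a factor of 1.81 (adjusted p = 0.00464). It passed also with active SIgA present alone (1.03, adjusted p = 0.00469), and with active SIgA absent the difference was 0.69 (unadjusted p = 0.00185, adjusted p = 0.282).

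The other clock genes did not pass the threshold. Dbp, a transcription factor of the clock's output, was at 7.42 and 7.41, 8.72 and 7.62, 9.25 and 8.38, and 9.26 and 9.80, a difference of 1.38 ± 0.40 (adjusted p = 0.0851), with passive only replicate 1 above active only replicate 2. Tef, of the same family, was at 7.34 and 7.32, 7.62 and 7.34, 8.31 and 7.75, and 8.12 and 8.19, with no overlap and a difference of 0.69 ± 0.17 (adjusted p = 0.0515). Nr1d1, the partner of Nr1d2, differed by 0.41 ± 0.11 (adjusted p = 0.0699), also with no overlap. The repressor genes Per1, Per2 and Per3 differed by 0.42, 0.41 and 0.57 and Cry2 by 0.39, while the activator genes Clock and Arntl differed by -0.32 and -0.44 and Cry1 by -0.23. Nfil3, which represses the genes that Dbp and Tef activate, differed by -0.18 ± 0.08 (adjusted p = 0.214), and in it, as in Clock, all 4 arrays without passive SIgA lay below all 4 with it. Each clock gene given with a difference here had the same sign at both levels of active SIgA.

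After DSS, on 8 other arrays, the same genes had differences of the same sign, except Nfil3 (0.01). The values there were 0.52 for Ciart, 0.32 for Nr1d2, 0.32 for Nr1d1, 0.71 for Dbp, 0.29 for Tef, 0.26, 0.39 and 0.42 for Per1, Per2 and Per3, 0.14 for Cry2, -0.11 for Clock, -0.34 for Arntl and -0.21 for Cry1. The median over the 18 genes was 0.14, with 14 above 0 and no gene past the threshold (adjusted p = 1 for each of these). The difference between the untreated and DSS effects did not pass for any of them (adjusted p from 0.395 for Nr1d2 to 0.992 for Per2). The intervals are wide: a standard error after DSS was 0.33 for Ciart and 0.40 for Dbp.

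**Figure D2:**
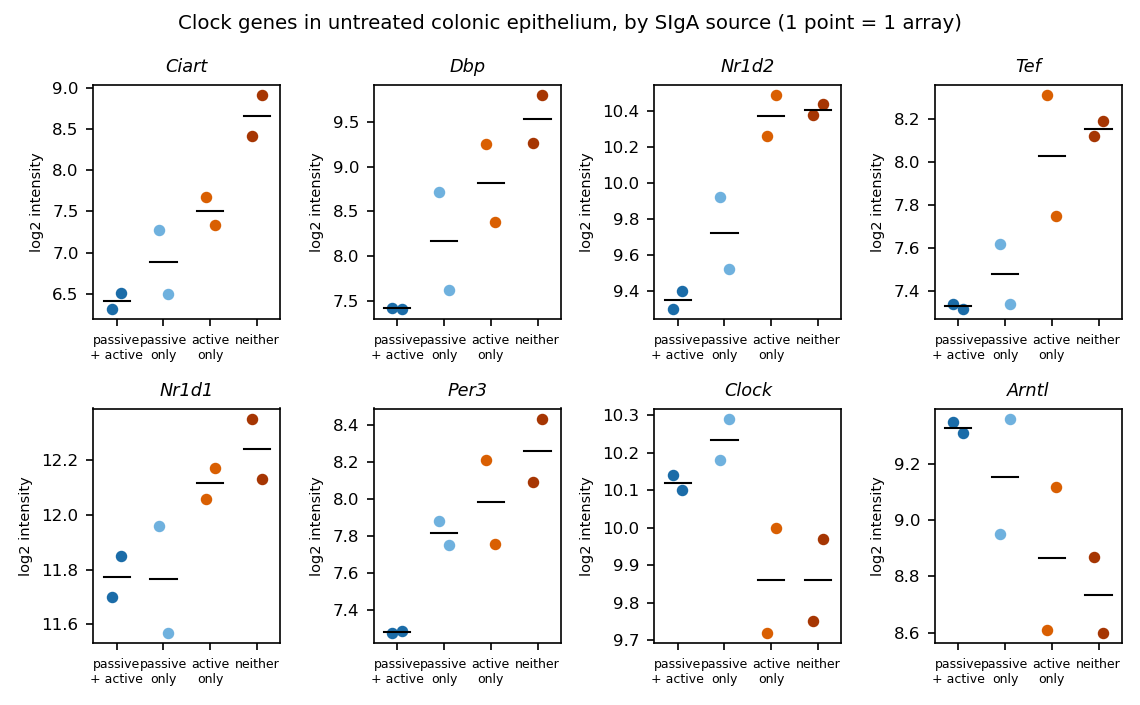
Log2 intensity of 8 clock genes on the untreated arrays (1 point for each of 2 arrays per group, bar at the group mean, a separate vertical scale for each gene). The 4 arrays without passive SIgA (orange and brown) lie above the 4 with it (blue) for Ciart, Nr1d2, Tef and Nr1d1, partly overlap them for Dbp, Per3 and Arntl, and lie below them for Clock.

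Promoters of the clock list are described here, since 2 of its genes passed. The table of RefSeq promoters (GRCm38.p6) held 21 promoters, of 300 bases each, for 16 of the 18 clock genes. The E-box searched was CACGTG, the site Clock and Arntl bind, and the D-box TTANGTAA, the site of Dbp and Tef, on both strands. E-boxes occurred in 6 of the 21 promoters (of Ciart, Tef, Per1, Cry1 and Bhlhe41) and D-boxes in 1 of 21 (Per3), against 7.15% and 2.32% of the 32851 promoters in the table. Ciart had 3 E-boxes, with first bases at -116, -58 and -44 from the transcription start. Per3 had 2 D-boxes, with first bases at -205 and -158, and Nr1d2 had neither letter pattern in its window. A match is a description of the letters and not a measured binding site. The 2 clock genes that rose and the gene with D-boxes are shown. The 250 bases before the start are printed 5′ to 3′ on the gene's strand, with the matches in capitals, for Ciart (chr3:95882229-95882478, minus strand), Per3 (chr4:151044666-151044915, minus strand) and Nr1d2 (chr14:18239107-18239356, minus strand).
Ciart: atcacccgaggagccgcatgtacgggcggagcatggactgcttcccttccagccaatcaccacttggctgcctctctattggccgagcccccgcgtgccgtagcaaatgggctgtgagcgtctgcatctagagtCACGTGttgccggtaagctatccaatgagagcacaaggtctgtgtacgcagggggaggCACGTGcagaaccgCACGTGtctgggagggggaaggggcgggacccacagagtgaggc
Per3: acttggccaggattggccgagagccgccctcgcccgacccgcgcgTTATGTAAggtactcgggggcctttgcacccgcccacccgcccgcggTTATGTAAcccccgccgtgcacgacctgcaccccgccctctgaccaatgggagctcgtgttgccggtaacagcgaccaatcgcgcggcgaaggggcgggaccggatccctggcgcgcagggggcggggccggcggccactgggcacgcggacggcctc
Nr1d2: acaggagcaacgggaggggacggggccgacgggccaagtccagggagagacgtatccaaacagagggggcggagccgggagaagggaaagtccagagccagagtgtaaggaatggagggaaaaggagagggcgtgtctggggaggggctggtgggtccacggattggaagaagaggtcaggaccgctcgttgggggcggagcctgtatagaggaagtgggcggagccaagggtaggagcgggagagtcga

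Irf1 rose as far as Nr1d2 did. It encodes an interferon-induced transcription factor. Its levels were 10.80 and 10.75 with passive and active SIgA, 10.95 and 10.94 with passive only, 11.68 and 11.89 with active only, and 11.90 and 11.41 with neither. Every array without passive SIgA lay above every array with it, by 0.86 ± 0.12, a factor of 1.81 (adjusted p = 0.00439). The matched differences were 1.01 (adjusted p = 0.00433) and 0.71 (adjusted p = 0.249). Irf9, the DNA-binding subunit of the complex that answers type I interferon, rose by 0.55 ± 0.11 (adjusted p = 0.0202), from 8.95 to 9.22 on the arrays with passive SIgA to 9.45 to 9.80 on those without.

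The rest of the interferon list is described by its counts. Of 28 interferon-stimulated genes on it 2 rose, namely Irf1 and Irf9, and none fell, against 0.777% higher and 1.8% lower over all genes. On the list 23 lay above 0, with a median of 0.17 against 0.03 over all genes. Among its others Mx1, an antiviral GTPase, differed by 0.37 ± 0.11 (adjusted p = 0.0943) and Irgm1, an interferon-induced GTPase, by 0.72 ± 0.24 (adjusted p = 0.122). Off this list, Tap1, a peptide transporter of MHC class I, differed by 0.59 ± 0.17 (adjusted p = 0.0749), and Ifitm3, which interferon also induces, fell by 0.76 ± 0.16 on the log2 scale (adjusted p = 0.0262). After DSS the list's median was 0.00 with 14 genes above 0 and 14 below. Irf1 itself then differed by 0.33 ± 0.12 (unadjusted p = 0.0185, adjusted p = 1). The matched differences of the MHC class II list lay apart: its 8 genes had a median of 0.37 with active SIgA present and -0.43 with it absent, and none passed. Cd74, the invariant chain, stood at 6.47 and 6.61, 8.44 and 8.82, 7.32 and 6.30, and 6.90 and 6.76, so that the passive only arrays were the highest. Its matched differences were 0.27 and -1.80 (adjusted p of their difference 0.055).

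Chac1 and Ddit3, of the unfolded protein response, rose, and so did Cars and Mthfd2, which are not on that list. Chac1, which degrades glutathione and is induced in the unfolded protein response, stood at 8.52 and 8.69, 8.40 and 8.01, 9.25 and 10.15, and 9.70 and 9.31. The groups did not overlap, and Chac1 rose by 1.20 ± 0.25, a factor of 2.29 (adjusted p = 0.0268), with matched differences of 1.10 and 1.30. Ddit3, which encodes the stress factor CHOP, stood at 8.63 and 8.61, 8.63 and 8.76, 9.09 and 9.12, and 9.32 and 9.09. It rose by 0.50 ± 0.08 (adjusted p = 0.00846), and its matched differences of 0.48 and 0.51 were nearly equal. Cars, a cysteinyl-tRNA synthetase, rose by 0.61 ± 0.15 (adjusted p = 0.0478) and Mthfd2, a mitochondrial enzyme of one-carbon metabolism, by 0.59 ± 0.14 (adjusted p = 0.0488), each with no overlap between groups. Of 27 genes of the unfolded protein response, Chac1 and Ddit3 alone passed (2.58% over all genes), 18 lay above 0, and the median was 0.05 against 0.03 over all genes. Herpud1, a component of protein degradation at the endoplasmic reticulum, differed by 0.33 ± 0.10 (adjusted p = 0.0965).

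Of the ion transport genes Atp12a and Slc9a3 rose, while Aqp4 fell. Atp12a, the proton and potassium pump of the colonocyte surface, stood at 10.22 and 10.33, 10.59 and 10.34, 11.10 and 11.02, and 11.20 and 11.26. It rose by 0.78 ± 0.18, a factor of 1.71 (adjusted p = 0.0435), with matched differences of 0.79 and 0.77. After DSS it differed by 0.96 ± 0.18 (unadjusted p = 0.00014, adjusted p = 0.126), higher than untreated but within the error of the comparison (adjusted p of the difference 0.871). Slc9a3, the sodium and proton exchanger of the brush border, stood at 10.04 and 10.11, 10.29 and 9.91, 10.50 and 10.67, and 10.92 and 10.93. It rose by 0.67 ± 0.16 (adjusted p = 0.0492), just within the threshold, and after DSS the difference was -0.06 ± 0.16.

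Aqp4, a water channel of the basolateral membrane, fell by 0.34 ± 0.08 on the log2 scale (adjusted p = 0.0476). Hsd11b2, which inactivates glucocorticoid in aldosterone target cells, stood at 11.58 and 11.53, 11.86 and 11.73, 11.28 and 11.28, and 11.05 and 11.19. All 4 arrays without passive SIgA were lower, the difference was -0.47 ± 0.07 (adjusted p = 0.0052), and the matched differences were -0.27 and -0.67. Of 30 ion and water transport genes 2 rose (Atp12a and Slc9a3) and 1 fell (Aqp4), against 0.777% and 1.8% of all genes, with 20 above 0 (57.8% over all genes) and a median of 0.12. Scnn1g, a subunit of the epithelial sodium channel, differed by 0.54 ± 0.13 (adjusted p = 0.0522). Of 28 absorptive colonocyte markers 2 rose, Slc9a3 and Tmigd1, an adhesion protein of the epithelium (0.46 ± 0.10, adjusted p = 0.0352), and none fell. Their median was 0.08, with 0.00 at active SIgA present and 0.17 with it absent. Clca4a, another marker of that list, differed by 0.45 ± 0.11 (adjusted p = 0.0544).

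The remaining named genes that rose have varied roles. Homer1, a scaffold protein, stood at 8.13 and 8.47, 8.71 and 8.39, 9.14 and 9.49, and 9.27 and 9.02, a rise of 0.80 ± 0.12 (adjusted p = 0.00487). Syt5, a calcium sensor of vesicle traffic, rose by 0.80 ± 0.12 (adjusted p = 0.00443), from 7.03 to 7.58 with passive SIgA to 7.86 to 8.23 without. Tat, which begins tyrosine breakdown, rose by 0.78 ± 0.14 (adjusted p = 0.0146), and its matched differences were 0.69 and 0.86. Itgb6, the integrin subunit of epithelial repair that activates TGF-beta, rose by 0.66 ± 0.13 (adjusted p = 0.0221). It was the 1 of 24 wound repair genes to pass, against 2.58% of all genes. St3gal5, the synthase of ganglioside GM3, rose by 0.65 ± 0.14 (adjusted p = 0.0266). Zfp330, a zinc finger gene, rose by 0.65 ± 0.13 (adjusted p = 0.0207), with 0.99 at active SIgA present and 0.31 with it absent. Ccdc116 rose by 0.59 ± 0.10 (adjusted p = 0.00712). In each of these 7 genes all 4 arrays without passive SIgA lay above all 4 with it.

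**Figure D3:**
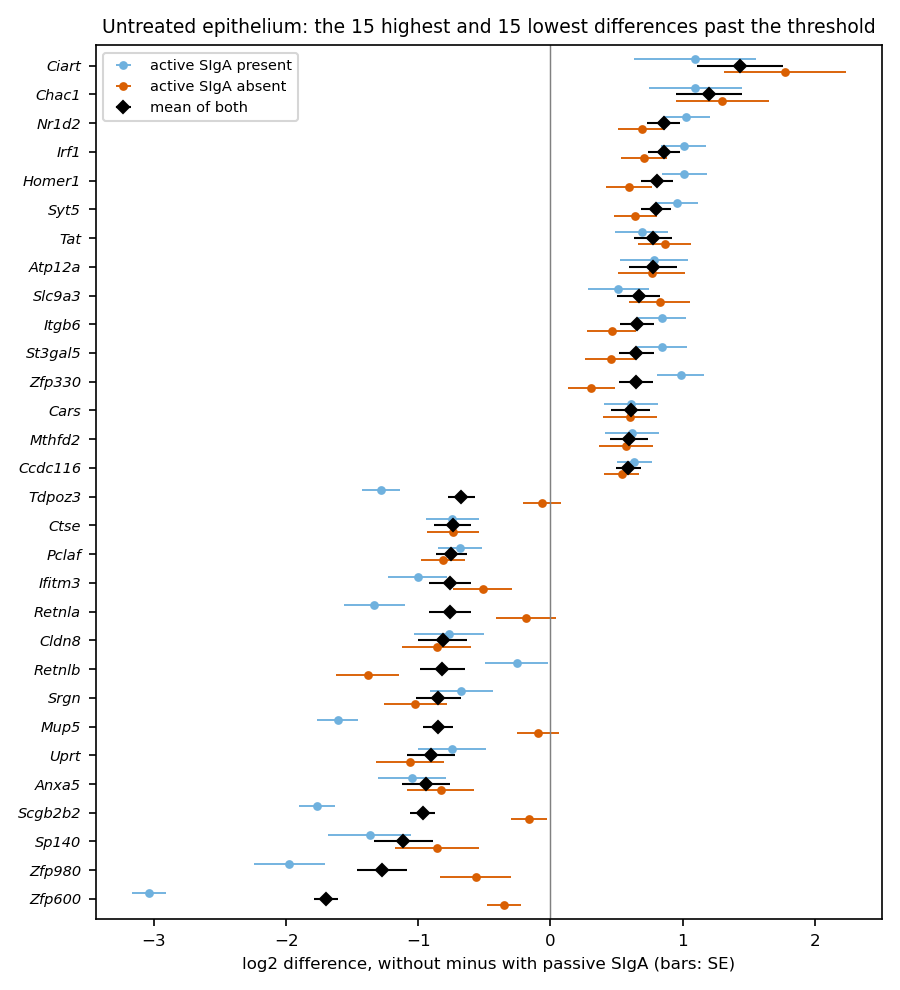
Log2 differences without minus with passive SIgA of the 15 highest and 15 lowest genes past the threshold that had the same sign at both levels of active SIgA (horizontal axis, bars 1 SE; diamonds the mean of both, circles the matched differences, 2 arrays per group). For Irf1, Chac1, Atp12a, Cldn8 and Ctse the circles lie near each other, while for Zfp600, Scgb2b2, Mup5 and Tdpoz3 nearly all of the difference lies at active SIgA present.

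Cldn8, Ccl28 and Ccl5 were among the genes that fell (1.8% of all genes). Cldn8, a claudin that seals the distal colon against sodium, stood at 11.47 and 11.34, 11.20 and 11.64, 10.19 and 11.08, and 10.57 and 10.54. The arrays without passive SIgA were all lower, with active only replicate 2 nearest to the others, by -0.82 ± 0.19, a factor of 1.76 (adjusted p = 0.0398). It was the 1 of 24 tight junction and adhesion genes to pass, and the list's median was 0.01. Ccl28, the epithelial chemokine that draws IgA plasma cells to the mucosa, stood at 10.63 and 10.71, 10.85 and 10.75, 9.75 and 10.17, and 9.98 and 10.44. It fell by 0.65 ± 0.14 on the log2 scale (adjusted p = 0.0299), with matched differences of -0.71 and -0.59 and no overlap. It was the 1 of 12 genes of IgA transport and class switching to pass. After DSS the difference of Ccl28 was -0.01 ± 0.14 (adjusted p of the change from untreated 0.341).

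Ccl5, a chemokine made by T cells and epithelium, stood at 8.44 and 8.36, 8.72 and 8.73, 7.81 and 7.89, and 8.35 and 8.29. The active only arrays were the lowest, and the fall over both pairs was -0.48 ± 0.10 (adjusted p = 0.0262). After DSS it differed by -0.41 ± 0.10 (unadjusted p = 0.00121, adjusted p = 0.438). Ccl5 and Ccl28 were the 2 of 32 cytokine and chemokine genes that passed, and both fell, against 1.8% of all genes. Ccl5 was also the 1 of 26 T cell and intraepithelial lymphocyte markers to pass, and that list's median was -0.01. Fewer cells of a kind and less RNA in each cell cannot be told apart in such bulk samples.

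Retnlb, the antimicrobial protein of goblet cells, fell mainly where active SIgA was absent, by its values. Its levels were 8.65 and 8.94 with passive and active SIgA, 10.25 and 10.62 with passive only, 8.68 and 8.41 with active only, and 8.78 and 9.33 with neither. Only the passive only arrays stood high, and the difference was -0.26 with active SIgA present and -1.38 with it absent, a mean of -0.82 ± 0.17 (adjusted p = 0.0254). The difference between those values had an adjusted p of 0.158. Retnlb was the 1 gene to pass among 20 goblet cell markers (median -0.07). It was also the 1 among 28 antimicrobial genes (median -0.09, 20 below 0), against 2.58% of all genes. Reg3g, a lectin that kills Gram-positive bacteria, stood at 9.47 and 10.25, 9.89 and 10.71, 8.59 and 8.76, and 9.47 and 9.80, and differed by -0.93 ± 0.25 (adjusted p = 0.0694). The groups overlapped in the neither arrays.

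Further genes fell, most of them above the median level. Anxa5, a protein that binds phosphatidylserine, stood at 9.73 and 9.89, 9.85 and 9.88, 8.35 and 9.18, and 8.82 and 9.24, a fall of 0.94 ± 0.18 on the log2 scale (adjusted p = 0.0183). Uprt, a homologue of a pyrimidine salvage enzyme, differed by -0.90 ± 0.18 (adjusted p = 0.0234). Srgn, the core protein of secretory granules in blood cells, differed by -0.85 ± 0.17 (adjusted p = 0.022), with 7.68 to 8.20 on arrays with passive SIgA and 6.73 to 7.34 without. Ifitm3, which restricts viral entry, stood at 8.28 to 8.68 with and 7.10 to 8.24 without passive SIgA. Sp140, a chromatin reader of immune cells and dimmer than the others here, stood at 6.61 to 7.75 with and 5.72 to 6.51 without (-1.11 ± 0.22, adjusted p = 0.0222). Ctse, an aspartic protease, had matched differences of -0.74 and -0.74 (mean -0.74 ± 0.14, adjusted p = 0.0168), although neighbouring groups overlapped: it stood at 10.50 and 10.48, 9.70 and 9.89, 9.74 and 9.76, and 8.75 and 9.37.

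Of these genes Anxa5, Srgn, Ifitm3, Sp140, Cldn8 and Ccl28 had their lowest value of the 8 arrays in active only replicate 1. Without that array the differences were -0.73 for Anxa5, -0.70 for Srgn, -0.57 for Ifitm3 and -0.92 for Sp140, still past the threshold. Without it Cldn8 differed by -0.59 and Ccl28 by -0.55, which no longer passed. Leaving out other single untreated arrays took Anxa5, Srgn, Ifitm3 and Sp140 out of the calls as well. This happened under 4 omissions for Anxa5, 5 for Srgn, 4 for Ifitm3 and 3 for Sp140.

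The lists of fatty acid, sterol, glycan and hypoxia genes gave 1 call each, against 2.58% of all genes. Nsdhl, an enzyme of cholesterol synthesis, fell by 0.51 ± 0.11 on the log2 scale (adjusted p = 0.0285), the 1 of 23 sterol and lipid synthesis genes to pass. B3gnt3, which extends O-glycan cores, fell by 0.57 ± 0.12 (adjusted p = 0.0277). Of 31 glycosyltransferases of mucins and surface glycans it alone passed, and 24 lay below 0 with a median of -0.13. Vegfa, the vascular growth factor, rose by 0.33 ± 0.08 (adjusted p = 0.0478), the 1 of 24 hypoxia and glycolysis genes to pass. Cyp4a10, a fatty acid hydroxylase, differed by -0.67 ± 0.11 (adjusted p = 0.00846), the 1 of 34 genes of fatty acid oxidation and ketogenesis to pass. Its level stood at 5.92 and 6.07 in the passive and active arrays against 4.46 to 4.86 elsewhere, and its matched differences were -1.15 and -0.20.

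**Figure D4:**
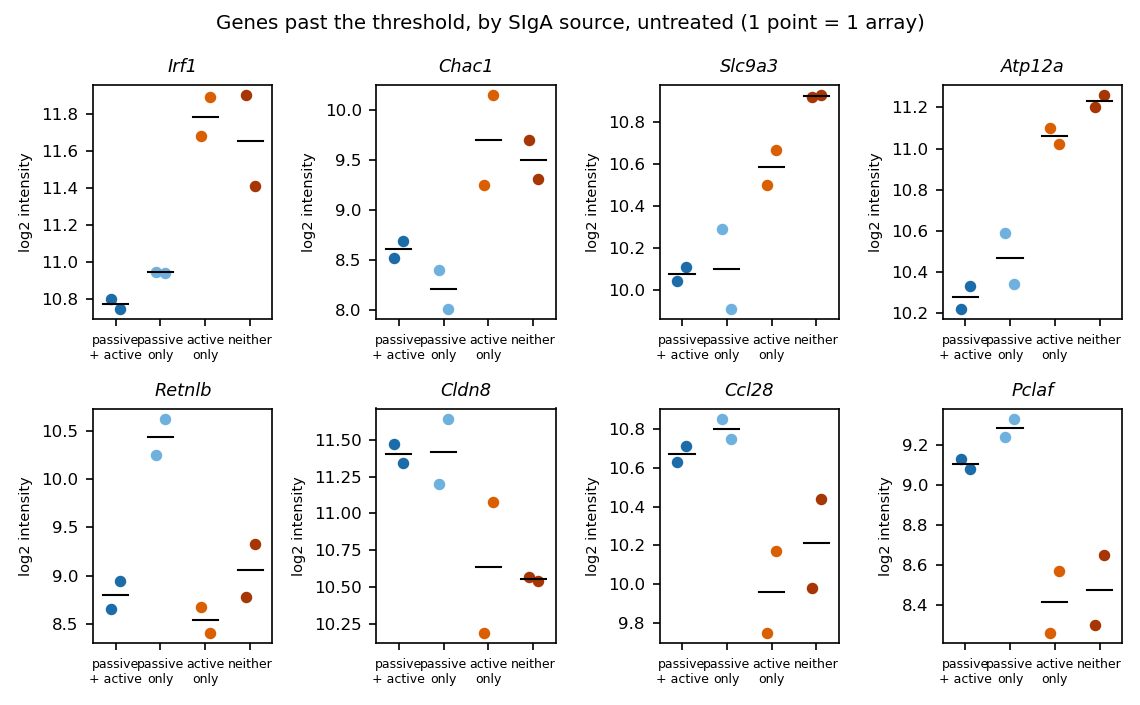
Log2 intensity of 8 genes past the threshold on the untreated arrays (1 point for each of 2 arrays per group, bar at the group mean, a separate vertical scale for each gene). In Irf1, Chac1, Slc9a3 and Atp12a the arrays without passive SIgA (orange and brown) lie above those with it (blue), in Cldn8, Ccl28 and Pclaf they lie below, and in Retnlb the passive only arrays stand apart.

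Genes of cell division lay below 0 as a list, with 1 related gene past the threshold. Pclaf, a partner of the replication clamp PCNA, stood at 9.13 and 9.08, 9.24 and 9.33, 8.26 and 8.57, and 8.30 and 8.65. It fell by 0.75 ± 0.12 on the log2 scale (adjusted p = 0.00602), with matched differences of -0.69 and -0.81. Pclaf was not on the cell cycle list. None of its 29 genes passed, while 27 of 29 lay below 0, 12 had an unadjusted p under 0.05 (all lower, against 9.74% of all genes), and the median was -0.21 against 0.03 over all genes. The median was -0.12 with active SIgA present and -0.33 with it absent. Rrm2, a subunit of ribonucleotide reductase, differed by -0.44 ± 0.12 (adjusted p = 0.0636) and Mcm4, of the replicative helicase, by -0.46 ± 0.12 (adjusted p = 0.0656). The mean level of the list ran from 8.54 to 8.90 on the arrays with passive SIgA and from 8.39 to 8.65 on those without.

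After DSS the cell cycle list gave similar numbers on arrays not used above. Its median there was -0.22, 28 of 29 genes lay below 0, 12 had an unadjusted p under 0.05, all lower (2.75% of all genes), and none passed. Rrm2 differed by -0.46 ± 0.12, Mcm4 by -0.32 ± 0.12 and Pclaf by -0.32 ± 0.12 (unadjusted p = 0.0192, adjusted p = 1). Genes of a cycle move together, so that the number of genes on 1 side is not a number of independent observations.

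Heat shock proteins also lay mostly below 0. None of 19 passed, 17 lay below 0, and the median was -0.18 untreated and -0.13 after DSS, where all 19 lay below 0. Over all genes 57.8% lay above 0 untreated and 45% after DSS. At an unadjusted p under 0.05, 7 were lower and 1 higher untreated (9.74% and 10.1% of all genes). After DSS 3 were lower at that p (2.75% of all genes), fewer than on the cell cycle list. Hspb1, a small chaperone, stood at 9.42 and 10.01, 9.34 and 9.11, 9.09 and 9.06, and 8.71 and 8.15, with no overlap and a difference of -0.72 ± 0.19 (adjusted p = 0.0595). Hspd1, the mitochondrial chaperonin, had matched differences of 0.02 and -0.84.

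**Figure D5:**
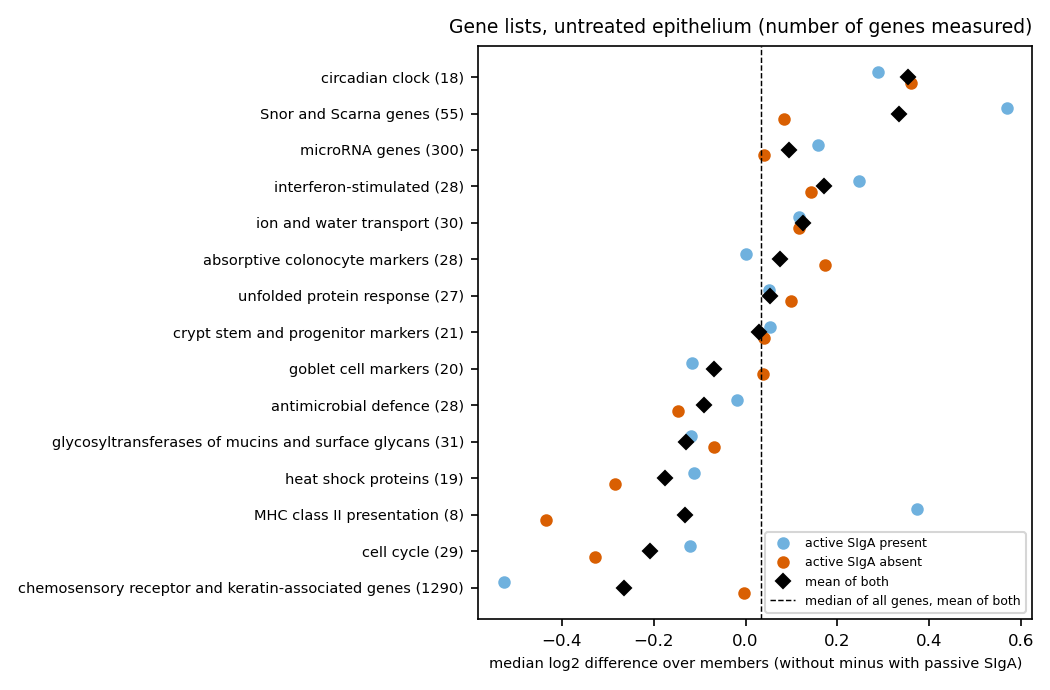
Median log2 difference without minus with passive SIgA over the members of 15 gene lists (number of genes measured in parentheses; diamonds the mean comparison, circles the matched differences, dashed line the median of all genes, 0.03). The circadian clock list lies at 0.35 and the cell cycle list at -0.21, while the Snor and Scarna, MHC class II and chemosensory lists have matched medians far apart.

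Several small RNA genes rose. Of 360 small RNA genes 18 rose and 2 fell, against 0.777% and 1.8% of all genes. Among 55 genes of small nucleolar and Cajal body RNAs, which guide the modification of ribosomal and spliceosomal RNA, 10 rose and none fell, with a median of 0.34. That median was 0.57 with active SIgA present and 0.08 with it absent. Scarna17 stood at 10.73 and 10.91, 11.19 and 10.98, 11.73 and 11.80, and 11.75 and 11.55, with no overlap, and rose by 0.76 ± 0.08 (adjusted p = 0.000842). Snora33 rose by a factor of 2, or 1.0 ± 0.17 (adjusted p = 0.0105), Snord118 by 0.97 ± 0.17 (adjusted p = 0.0108), Snord15b by 0.84 ± 0.14 (adjusted p = 0.00712) and Snora62 by 0.78 ± 0.12 (adjusted p = 0.0058). Rprl2, a gene of the RNase P RNA family, rose by 0.56 ± 0.08 (adjusted p = 0.00362), with matched differences of 0.51 and 0.62.

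The Snor and Scarna genes lay above 0 after DSS as well. There 51 of 55 were above 0, 40 had an unadjusted p under 0.05, all higher (1.2% of all genes), and the median was 0.47, with none past the threshold. Snord118 had the smallest adjusted p of that comparison (1.19 ± 0.17, adjusted p = 0.0645). Snora33 differed by 0.99 ± 0.17 (adjusted p = 0.0945) and Rprl2 by 0.46 ± 0.08 (adjusted p = 0.071). On an array that labels whole transcripts, a signal at such a gene can come from the small RNA or from the host transcript that carries it.

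Of 300 microRNA genes 7 rose and 2 fell, against 0.777% and 1.8% of all genes. Of the 300, 270 had a mature sequence in the RefSeq table, the 9 called genes among them. Their sequences name which target seeds would be concerned. Printed 5′ to 3′ are the mature forms of 5 genes that rose, with the seed (bases 2 to 8) in capitals. They come from Mir26a-1 (chr9:119031811-119031832, plus strand), Mir26b (chr1:74394324-74394344, plus strand), Mir15a (chr14:61632075-61632096, minus strand), Mir200b (chr4:156055685-156055706, minus strand) and Mir222 (chrX:19146901-19146923, minus strand), in GRCm38.p6.
miR-26a-5p: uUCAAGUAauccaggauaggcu
miR-26b-5p: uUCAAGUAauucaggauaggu
miR-15a-5p: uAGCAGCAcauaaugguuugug
miR-200b-3p: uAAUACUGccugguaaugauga
miR-222-3p: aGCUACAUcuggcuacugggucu

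The genes Mir26a-1 and Mir26b share the seed UCAAGUA, lie on different chromosomes, and both rose, by 0.47 ± 0.08 (adjusted p = 0.0111) and 0.50 ± 0.11 (adjusted p = 0.0361). Mir26a-1 stood at 5.45 and 5.46, 5.41 and 5.57, 5.95 and 5.97, and 5.81 and 6.03, with no overlap. Their host genes Ctdspl and Ctdsp1 did not pass. Mir15a stood at 7.74 and 7.38, 8.11 and 8.04, 8.41 and 8.89, and 8.97 and 8.61. It rose by 0.90 ± 0.13, a factor of 1.87 (adjusted p = 0.00396). Its host Dleu2, with a dim probe set (mean level 2.77), did not pass. None of the other 5 genes with the seed AGCAGCA passed. Mir200b, of the family that maintains epithelial identity, rose by 0.50 ± 0.11 (adjusted p = 0.031), and Mir200c, with the same seed, differed by 0.27 (adjusted p = 0.243). Mir222 rose by 0.68 ± 0.13 (adjusted p = 0.0159), with 1.05 at active SIgA present and 0.31 with it absent. Its seed partner Mir221 differed by 0.40 (adjusted p = 0.0951).

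Like Mir222, the other microRNA genes that passed had matched differences of unlike size, but of these only Mir680-2 passed limma's test between the pairs. The adjusted p of that test was 0.232 for Mir222, 0.107 for Mir505 and 0.11 for Mir377. Mir505 and Mir377 rose by 0.59 ± 0.14 (adjusted p = 0.0476) and 0.41 ± 0.09 (adjusted p = 0.0344), with 1.11 and 0.74 at active SIgA present and 0.06 and 0.08 with it absent. Mir680-2 stood at 10.38 and 10.29 in the passive and active arrays and at 8.58 to 9.11 elsewhere. Its mean difference was -0.63 ± 0.10 (adjusted p = 0.00547), made of -1.48 and 0.21, which differ (adjusted p = 0.00133). Mir135a-2, the other gene that fell (-0.34 ± 0.08, adjusted p = 0.0479), had -0.64 and -0.05 (adjusted p of their difference 0.122). The array does not tell a precursor from a mature microRNA.

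Of the 15 lowest named genes 6 were dim and highest in the passive and active group. Zfp600, a zinc finger gene, stood at 5.65 and 5.57 in the passive and active arrays and at 2.82 and 3.02, 2.64 and 2.50, and 2.59 and 2.56 in the other groups. Its mean difference of -1.70 ± 0.09 (adjusted p = 1.84e-06) was made of -3.04 and -0.35, which differed from each other (adjusted p = 3.29e-05). Zfp980, a gene of the same kind, stood at 4.84 and 5.31 against 2.83 to 3.73 (-1.27 ± 0.19, adjusted p = 0.00483, made of -1.98 and -0.57). Scgb2b2, a secretoglobin gene, differed by -0.97 ± 0.10 (adjusted p = 0.000399), Mup5, a major urinary protein gene, by -0.85 ± 0.11 (adjusted p = 0.00259), Tdpoz3 by -0.67 ± 0.10 (adjusted p = 0.00487) and Retnla by -0.76 ± 0.16 (adjusted p = 0.0298). Their differences with active SIgA absent were -0.16, -0.09, -0.06 and -0.19. In all 6 genes the passive and active arrays held the highest values of the 8.

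With active SIgA present, several genes differed that, Usp31 excepted, did not pass in the mean comparison. Those given here were higher, while 766 of the 1080 genes that passed in this pair were lower. The lowest named genes of the pair were Zfp600, Zfp980, Prl3d3, Scgb2b2 and Mup5. Ccl20, the chemokine of the epithelium over lymphoid follicles, stood at 8.43 and 8.16 with passive and active SIgA and at 9.65 and 9.55 with active only, a difference of 1.31 ± 0.24 (adjusted p = 0.0069). With active SIgA absent it differed by -0.17, and the adjusted p between the pairs was 0.0572. Snrpb2, a spliceosome protein, differed by 1.09 (adjusted p = 0.0115) and -1.07 in the matched pairs, which were opposite (adjusted p of their difference 0.00446). Gas5, a host of small nucleolar RNAs, differed by 0.96 (adjusted p = 0.0251) and 0.18, and Rny1, a Y RNA gene, by 1.36 (adjusted p = 0.0128) and -0.12. Usp31, a deubiquitinase gene, rose by 0.57 ± 0.14 in the mean comparison (adjusted p = 0.0492), with 0.98 and 0.15.

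With active SIgA absent no gene passed, and the 5 smallest p in each direction among named genes with the same sign in both pairs were as follows. Rprl2, Pmvk, Cyp2d9, Dyrk2 and Gtpbp2 were higher without passive SIgA, by 0.62, 0.61, 0.71, 0.64 and 0.70 (adjusted p from 0.173 to 0.219). Pmvk is an enzyme of the mevalonate pathway, Dyrk2 a protein kinase and Gtpbp2 a ribosome rescue factor, and these 3, like Rprl2, also passed in the mean comparison, at 0.38, 0.51 and 0.57. Hsd11b2, Fam111a, Pros1, Retnlb and Zfp456 were lower, by -0.67, -0.79, -0.93, -1.38 and -0.58 (adjusted p from 0.12 to 0.217). Fam111a, a protease that restricts viral replication, stood at 6.59 and 6.61, 7.21 and 7.41, 6.32 and 6.28, and 6.38 and 6.65, so that the passive only arrays were the highest and a neither array lay above both passive and active arrays. Fam111a, Pros1, the anticoagulant protein S, and Zfp456 fell in the mean comparison as well, by -0.55, -0.64 and -0.33. The mean comparison contains the pair by which these genes were picked, so a call in it is not separate support. At active SIgA present, those that rose differed by 0.14 (Pmvk) to 0.51 (Rprl2). Those that fell differed there by -0.07 (Zfp456) to -0.34 (Pros1).

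After DSS no gene passed for passive SIgA (0%) in limma's test, with 788 (3.95%) at an unadjusted p under 0.05 and 25 genes called by limma with a trend. These arrays share no mouse pool with the untreated ones. Of the 225 brighter genes called untreated, 187 (83.1%) had the same sign after DSS, against 62.1% of the 9744 other bright genes, and 56 had an unadjusted p under 0.05 with that sign. Their median differences were smaller: 0.42 untreated and 0.07 after DSS for those that rose, and -0.48 and -0.14 for those that fell. Of the 289 dimmer called genes 150 (51.9%) had the same sign, against 53.9% of the other dim genes. The untreated and DSS effects differed in 23 genes (0.115%), all more negative untreated, of which 17 were chemosensory receptor or keratin-associated and 21 were at or below the median level.

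In the mean comparison, lists of other cell types and functions gave no call. None passed among the markers of crypt stem cells (21 genes, median 0.03), enteroendocrine cells (24, median 0.00), tuft cells (18, median 0.11), neutrophils (20, median 0.08), macrophages (23, median 0.03), B cells and plasma cells (21, median 0.10), fibroblasts (22, median 0.11), smooth muscle (17, median 0.14), endothelium (16, median 0.10) and neurons and glia (14, median 0.08). The stromal medians came from the pair with active SIgA present, at 0.20 for fibroblasts and 0.25 for smooth muscle, against -0.01 and 0.01 with active SIgA absent. None passed either among genes of MHC class I (11, median 0.09), pattern recognition (30, median 0.02), xenobiotic metabolism (54, median 0.02) and oxidative phosphorylation (25, median -0.03). The same held for immediate early response (29, median 0.04) and mouse counterparts of human inflammatory bowel disease genes (49, median 0.07). With active SIgA present alone, 2 enteroendocrine markers, 1 B cell and plasma cell marker and 1 endothelial marker fell (3.84% of all genes). There 1 B cell and plasma cell marker, 1 smooth muscle marker, 1 MHC class I gene and 1 immediate early gene rose (1.57%). The matched differences themselves differed in 2 genes of oxidative phosphorylation and 1 immediate early gene (1.15% of all genes).

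The calls of the mean comparison rest on 8 arrays. Leaving out 1 array gave 157 to 714 calls: 160 without replicate 2 of the passive and active group, 157 and 169 without either passive only array, 166 and 337 without either neither array, and 477 to 714 without any of the other 3. Without the whole passive and active group, which leaves only the pair without active SIgA, none passed. Zfp600, Zfp980, Scgb2b2, Mup5, Tdpoz3, Cyp4a10 and Mir680-2 then differed by -0.35, -0.57, -0.16, -0.09, -0.06, -0.20 and 0.21. All of them stood highest in the passive and active arrays. Their calls held when 1 array was left out, a step that keeps at least 1 passive and active array in the fit. Of the 63 genes named here that passed, 21 passed whichever untreated array was left out, among them Nr1d2, Irf1, Homer1, Syt5, Ccdc116, Ddit3, Hsd11b2, Pclaf, Fam111a, Scarna17, Snord15b, Snora62, Rprl2 and Mir15a. The others missed the threshold at least once, with no change of sign, and many of them did so under most omissions. Atp12a and Slc9a3 missed it whichever of the 8 untreated arrays was left out. Ciart, Cldn8 and Ccl5 missed it under 7 of the omissions, Chac1 and Ccl28 under 6, and Retnlb under 4.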

How the data were processed

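The authors deposited 1 table of log2 intensities, measured on Affymetrix arrays of whole transcripts. Per the submitters' processing notes it was made with RMA, which corrects for background, normalizes by quantiles and summarises the probes of a set. The RMA version and the array's scan batches are not given in the sources used here. Per the labels' protocols, only RNA with an integrity number of 8.5 or more was pooled. Of 35557 probe sets, 21789 named 1 gene, 1621 several and 12147 none, and 21698 matched RefSeq (GRCm38.p6). Those with 1 gene were used, the one with the highest mean where a gene had more (999 genes), which gave 19938 genes. The deposited arrays were not on exactly 1 distribution, with medians from 6.678 to 6.825. Levels of different probe sets are not compared as amounts of RNA. The precision is limited by how few arrays there are.

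A mean for each of 8 groups was fitted on all 16 arrays with limma 3.58.1 in R 4.3.3 (moderated test, two-sided, Benjamini-Hochberg over 19938 genes, with no replicate block), and checked on simulated data. The median standard error was 0.106 for the mean comparison and 0.15 for a matched difference. Named genes were the 15 highest and 15 lowest past the threshold with 1 sign in both matched differences, up to 10 on each side of a matched difference whose pools did not overlap (5 by the smallest p where fewer passed), 5 per interaction, up to 4 of each list with the smallest p, and Pigr. Symbols of unnamed genes, small RNAs, chemosensory receptors and keratin-associated proteins (254 of 514) were left aside and counted. Small RNAs, clock genes beyond 4, and a few other list members were named after their values were seen. The comparison, the members and the 41 lists were chosen with earlier results of these data known.

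By the rule that every pair exceed 0.1, the replicate numbers did not pair the samples: deviations of same-numbered arrays from their group means correlated at -0.3 to 0.67 over all groups (14 of 28 pairs over 0.1). Among the untreated groups they correlated at 0.04 to 0.45 (5 of 6 over 0.1), short of every pair.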

Additional observations from a re-analysis of the deposited data

Results flagged for a closer look

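The matched differences differed from each other in 229 genes, and the untreated and DSS differences in 23, by a test of the difference itself (limma, adjusted p under 0.05). Of these, 194 and 21 lay at or below the median level, and 162 and 17 were chemosensory receptor or keratin-associated genes. With the dimmest 30% of genes left out 10 and 0 passed. The part of the raised dim signal of the passive and active group in these counts was not tested. Values are log2, first the matched difference with active SIgA absent minus that with it present. They were 2.69 for Zfp600, 1.60 for Scgb2b2, 1.52 for Mup5, 1.22 for Tdpoz3, 1.69 for Mir680-2, 1.45 for Defb4, 1.34 for Mucl2 and 1.18 for Nyx. In these 8 genes the passive and active arrays were the highest of the untreated arrays. Ankrd26 had the opposite sign, at -1.17, and the passive and active arrays were its lowest.

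The untreated minus the DSS difference was -1.82 for Zfp600, -0.87 for Scgb2b2, -1.01 for Mup5 and -0.70 for Nyx. Groups held 2 arrays, too few for a test of single outlying samples.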

How the results depend on the processing

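Counts of genes past the threshold are given in the order mean comparison (514), active SIgA present (1080), absent (0), difference between these (229), after DSS (0) and untreated against DSS (23), where they left a range of 1.5 times the stated count. Limma with a trend gave 803, 5 with active SIgA absent and 25 after DSS. No moderation gave 694 (present), 1 (absent), 77 and 2 for the differences. Array weights gave 283, 357 and 7. Centring arrays on their median gave 949, 1808, 1, 524, 4 and 139. Quantile normalization gave 1049, 1897, 492 and 43, and the share of higher genes in the difference between pairs fell from 87.3% to 73.4%. Leaving out the dimmest 30% of genes gave 202, 129, 1, 10, 15 and 0 (1071 at an unadjusted p under 0.05). All probe sets gave 1577, 2581, 1260 and 646. A fold change of at least 1.5 gave 194. An adjusted p under 0.1 gave 1304, 2123, 1, 452, 17 and 74. A fit of the 8 untreated arrays alone gave 189, 604 and 114 (difference between pairs). The replicate block, fitted although not every pair of same-numbered arrays correlated over 0.1 (0.04 to 0.45 untreated), gave 717, 1505, 0, 323, 16 and 34. The cause of these changes was not tested.

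Without the untreated passive and active group, limma called 0 genes in the mean comparison, which is then the pair without active SIgA (1379 at an unadjusted p under 0.05), 2 after DSS and 0 against DSS in Pigr-/- offspring (777 unadjusted). Without active only replicate 1 as well the counts were 0, 4 and 0. The pair with active SIgA present and the difference between pairs have no value there. Leaving out 1 array at a time gave 157 to 714, 269 to 1519, 0 to 0, 83 to 297, 0 to 1 and 1 to 84, with the lone array of a group assumed to vary like the others.

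Of 90 genes whose mean difference is given, 88 kept their direction under every alternative that gave them a value (80 had one with the dimmest 30% left out). Mir680-2 turned to 0.213 under both settings without the passive and active group. Pigr, near 0, turned to -0.07 with centred arrays, -0.006 without passive and active replicate 2, -0.038 without passive only replicate 2 and -0.031 without active only replicate 1, and leaving out 1 array at a time gave -0.038 to 0.056. Signal over background is unknown for single genes, so that dim genes have no floor.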
